A study of Mus musculus with 12 samples.

Results

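The genes described here are the replication-dependent histone genes of the mouse, taken as every gene whose symbol begins with Hist1h, Hist2h, Hist3h or Hist4h. This rule found 68 of the 23366 genes counted. By class, 6 encode the linker histone H1, and 18, 19, 12 and 13 carry H2A, H2B, H3 and H4 names. By cluster, 54 are Hist1 genes on chromosome 13, 10 are Hist2 genes on chromosome 3, 3 are Hist3 genes on chromosome 11 and 1 is the Hist4 gene on chromosome 6. RNA-seq measured them in small-intestinal epithelium of a mixed C57BL/6 CD1 strain, in 4 groups of 3 libraries. The embryonic groups, named E12.5 and E14.5 after their day of gestation, held gut epithelium sorted as EpCAM+, CD31- and CD45-. ISC were Lgr5-EGFP-high stem cells from crypts, and AE were EpCAM+, CD31- and CD45- villus cells, enterocytes by their label. Both adult groups came from Lgr5EGFP-Cre-ERT males at postnatal day 60, so the reporter allele driven by Lgr5 was present in AE donors as well. Each E12.5 library pooled 20 embryos and each adult library came from 1 gut, while the pool size of E14.5 is not given in the sources used here. The age label of all 6 embryonic libraries names the other stage than the title does. Titles were followed, and the sign of every E14.5 against E12.5 value rests on them. So does the stage named for every embryonic value and in every comparison with an adult group.

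Cells wrap DNA around octamers of H2A, H2B, H3 and H4, and H1 binds the DNA between these particles. Replication-dependent histone genes are switched on as cells enter S phase, and most of their mRNAs have no poly(A) tail. These mRNAs end just after a short conserved stem-loop, which is bound by the protein SLBP and is needed for 3′ end processing, translation and rapid decay when replication stops. Some of these genes can also give a longer, polyadenylated mRNA in cells that have left the cycle. In the intestine, crypt cells divide and villus enterocytes do not.

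The stem-loop is shown first because it is the sequence that sets these mRNAs apart. It was searched for in GENCODE M21 transcripts (GRCm38, a later build than the mm9 of the counts), and 46 of the 68 genes held a match. Some of the 22 without a match have short annotated transcripts, such as 381 bases in Hist1h2bl and 393 in Hist1h2ak. Whether their annotation reaches the 3′ end was not checked, so a missing match does not mean a missing stem-loop. Capitals mark the stem-loop, with 5 bases on each side, 5′ to 3′ on the mRNA strand. The 8 genes shown cover the classes and some of the genes named below. Hist1h2bc, Hist1h2ak and Hist1h2bl, which the results below also turn on, held no match and are not shown.
Hist1h1e: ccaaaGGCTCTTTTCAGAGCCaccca
Hist1h1c: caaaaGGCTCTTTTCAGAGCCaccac
Hist3h2a: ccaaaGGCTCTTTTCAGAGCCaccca
Hist3h2ba: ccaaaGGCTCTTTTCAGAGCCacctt
Hist1h2bm: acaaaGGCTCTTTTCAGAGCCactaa
Hist1h3c: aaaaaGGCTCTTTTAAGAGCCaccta
Hist1h4d: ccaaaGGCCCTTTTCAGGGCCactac
Hist4h4: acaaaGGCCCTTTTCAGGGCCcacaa
The form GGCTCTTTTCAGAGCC was found in 3 H1, 10 H2A, 8 H2B and 5 H3 genes. No H4 gene held it: 7 H4 genes held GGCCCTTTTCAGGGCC, and 2 held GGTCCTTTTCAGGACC. The other matches differed from these forms in the loop. Hist3h2a and Hist3h2ba, whose levels differ below, held the same stem-loop. The annotated transcript past the stem-loop ran on for 1153 bases in Hist1h1e, 840 in Hist1h1c, 1643 in Hist3h2a, 770 in Hist1h4d and 2445 in Hist4h4, against 169 in Hist3h2ba, 74 in Hist1h3c and 46 in Hist1h2bm.

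RefSeq promoter windows (GRCm38.p6, 250 bases before to 50 after the start) were found for 61 of the 68 genes and searched on both strands. The letters CCAAT were in 85.2% of them, against 37.4% of all 32851 promoters, and in every H1, H2A, H2B and H3 window but only 25.0% of H4 windows. TATAAA was in 57.4%, against 13.6% of all promoters. The octamer ATTTGCAT was in 23.0%, against 1.7% of all, and was held by 41.2% of H2A and 43.8% of H2B windows and by none of the H1, H3 or H4 windows. The promoters of Hist3h2a (chr11:58954435-58954734, plus strand) and Hist3h2ba (chr11:58948661-58948960, plus strand) are shown because these genes of 1 small cluster had unlike levels in the adult groups, with these 3 motifs in capitals.
Hist3h2a: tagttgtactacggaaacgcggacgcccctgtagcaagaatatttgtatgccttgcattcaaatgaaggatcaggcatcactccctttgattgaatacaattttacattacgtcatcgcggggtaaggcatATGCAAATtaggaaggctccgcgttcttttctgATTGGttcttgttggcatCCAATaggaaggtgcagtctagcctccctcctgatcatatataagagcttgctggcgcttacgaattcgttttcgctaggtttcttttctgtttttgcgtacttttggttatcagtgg
Hist3h2ba: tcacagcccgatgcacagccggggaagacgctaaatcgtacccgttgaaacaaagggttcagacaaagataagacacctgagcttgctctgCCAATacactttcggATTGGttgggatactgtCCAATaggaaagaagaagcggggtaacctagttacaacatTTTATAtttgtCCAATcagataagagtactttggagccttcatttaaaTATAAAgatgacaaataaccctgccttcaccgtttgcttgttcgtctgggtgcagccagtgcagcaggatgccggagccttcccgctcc
The Hist3h2a window held the octamer and no TATAAA, and the Hist3h2ba window held TATAAA and no octamer. A match of letters is a description of the window and not evidence of a bound factor.

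Counts on genes came to 12587626 to 45190749 per library. Each E12.5 and ISC library lists 3.06% to 5.96% of its reads as aligned to more than 1 place, and each E14.5 and AE library lists 0, with no reason given in the sources used here. This split falls between the groups of E14.5 against E12.5, ISC against E14.5 and AE against ISC, where it cannot be told apart from the groups. It does not fall between those of ISC against E12.5, nor between those of AE against E14.5. Every ISC library does list a larger share of such reads than any E12.5 library. Marker sums were highest in the groups so labelled. Stem-cell markers summed to 7681 ± 388 CPM in ISC, 864 ± 76.3 in AE, 291 ± 5.44 at E14.5 and 173 ± 5.04 at E12.5. Enterocyte markers summed to 43134 ± 17384 CPM in AE and at most 718 ± 370 CPM elsewhere. Mitosis genes summed to 1614 ± 603 CPM in AE and 5989 ± 768 in ISC. AE replicate 1 had the highest mitosis sum of the AE libraries (2297 CPM, against 1154 and 1391). It also had the lowest enterocyte sum (23224 CPM, against 50870 and 55308). The part of stem or cycling cells in the AE values below was not tested. CPM is the usual depth-normalised count, here with library sizes scaled by TMM. Errors are SD with n = 3, except that errors on log2 changes are standard errors (SE) of the fit. Markers of mesenchyme ran from 166 to 208 CPM at E12.5, 265 to 319 at E14.5, 5.70 to 7.25 in ISC and 4.33 to 9.71 in AE, with 8 of 10 under 1 CPM in ISC and in AE (Des at 0 in ISC). Their part in the embryonic values below was not tested.

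Not every histone gene could be counted. Hist1h2aa, Hist1h2ap, Hist1h2bq, Hist1h2br and Hist2h2aa1 had 0 counts in all 12 libraries, where 3 counts over a group would equal 0.0371 CPM at E12.5, 0.0263 at E14.5, 0.0525 in ISC and 0.0606 in AE. Hist1h2ao, Hist1h2ba, Hist1h4m and Hist2h2aa2 had 1 to 3 counts in all. Near-identical copies make these and other values uncertain. Of the 68 genes, 34 share over 50% of their 50-base transcript stretches with another gene, and Hist2h2aa1 and Hist2h2aa2 share all of theirs. Any other annotated gene counted, on either strand, so the partner need not be a histone copy. Hist2h2bb shares all its stretches with other genes but 0% with the 68. Hist2h2ab shares 64.8%, and 21.0% with the 68. Shared stretches made up 8.54% of Hist1h1c, 10.2% of Hist1h4d, 30.6% of Hist1h2bc, 57.0% of Hist1h2ak, 58.0% of Hist1h2ab and 82.8% of Hist1h2bl. All stretches of Hist2h3c1 recur elsewhere, chiefly in Gm20634. Transcripts of Hist1h1e and Hist1h2be overlap, as do those of Hist3h2a and Trim17, and reads from the overlapping parts cannot be assigned to 1 gene. Hist1h1e and Hist1h2be both lie on the minus strand, so counting by strand would not separate them. A filter on low counts left 52 of the 68 genes for testing.

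Summed over all 68 genes, histone mRNA stood at 737, 666 and 810 CPM in the E12.5 libraries, 446, 415 and 576 CPM at E14.5, 990, 873 and 595 CPM in ISC, and 380, 322 and 366 CPM in AE. The E14.5 libraries all lay below the E12.5 libraries, the AE libraries lay below all others, and ISC overlapped E12.5. The means were 738 ± 72.0, 479 ± 85.8, 819 ± 203 and 356 ± 30.7 CPM, in that order. The log2 ratio of means was -0.62 for E14.5 over E12.5, 0.77 for ISC over E14.5 and -1.20 for AE over ISC. It was 0.15 for ISC over E12.5. Both of these groups list reads aligned to more than 1 place, averaging 5.61% ± 0.486 in ISC and 3.55% ± 0.453 at E12.5. Per kb of transcript the sums were 1021 ± 173 CPM at E12.5 and 969 ± 251 in ISC, so ISC was then not the higher. For AE over E14.5 the log2 ratio was -0.43. It was -0.68 with upper-quartile scaling, -0.84 per transcript length and -1.05 without scaling factors. ISC replicate 3 was the lowest stem-cell library and E14.5 replicate 3 the highest E14.5 library, and without them the values were 0.92 in each case for ISC over E14.5, -1.35 without ISC replicate 3 for AE over ISC, and -0.77 and -0.28 without E14.5 replicate 3 for E14.5 over E12.5 and AE over E14.5. In bulk samples, fewer cells in S phase and less histone mRNA per cell cannot be told apart.

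The same order of group means in CPM was seen in genes sharing at most 50% of their stretches, a choice added after the data were seen. They summed to 527 ± 11.8 CPM at E12.5, 377 ± 56.9 at E14.5, 647 ± 154 in ISC and 319 ± 26.3 in AE. The H2A genes of this kind did not keep it. They summed to 14.6 ± 3.78, 13.9 ± 0.471, 21.4 ± 1.02 and 17.6 ± 4.73 CPM over E12.5, E14.5, ISC and AE. Nearly all of this came from Hist3h2a and Hist1h2ac. Hist3h2a alone stood at 10.9, 11.0, 9.91 and 11.0 CPM, and its transcript overlaps that of Trim17. These sums thus describe mainly those genes and not the class. All 18 H2A genes summed to 86.6 ± 36.7, 30.7 ± 7.72, 67.4 ± 11.4 and 22.0 ± 5.84 CPM.

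The classes differed in size and in how far they moved. H1 genes, the linkers, summed to 251 ± 28.5 CPM at E12.5, 164 ± 17.3 at E14.5, 351 ± 87.7 in ISC and 141 ± 34.7 in AE. H2B genes summed to 250 ± 35.7, 187 ± 34.4, 235 ± 49.3 and 132 ± 9.12 CPM in the same groups, and ISC overlapped both embryonic stages. H3 genes stood at 26.9 ± 4.55, 13.5 ± 4.86, 35.4 ± 11.2 and 10.5 ± 2.91 CPM. In CPM they showed the lowest AE level relative to ISC, with a log2 ratio of -1.75. H4 genes summed to 124 ± 27.6, 84.0 ± 21.6, 131 ± 43.7 and 50.6 ± 4.84 CPM. The core classes together stood at 1.32, 1.36 and 1.33 times the H1 sum in the ISC libraries, a narrower spread than the 1.35 to 2.52 of E12.5, 1.73 to 2.13 of E14.5 or 1.25 to 2.19 of AE. These sums are counts and not protein, and they carry no test. They also depend on transcript length. Per kb of the longest annotated transcript, H2B stood above H1 in every group, at 488 ± 86.0 against 195 ± 22.8 CPM at E12.5. In ISC it was 406 ± 101 against 257 ± 67.8. Per kb, H2A was lowest in AE relative to ISC, at 18.4 ± 4.98 against 121 ± 24.9. For H3 it was 10.6 ± 3.31 against 49.9 ± 18.2. The ratios of core classes to H1 were not computed per kb.

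**Figure D1:**
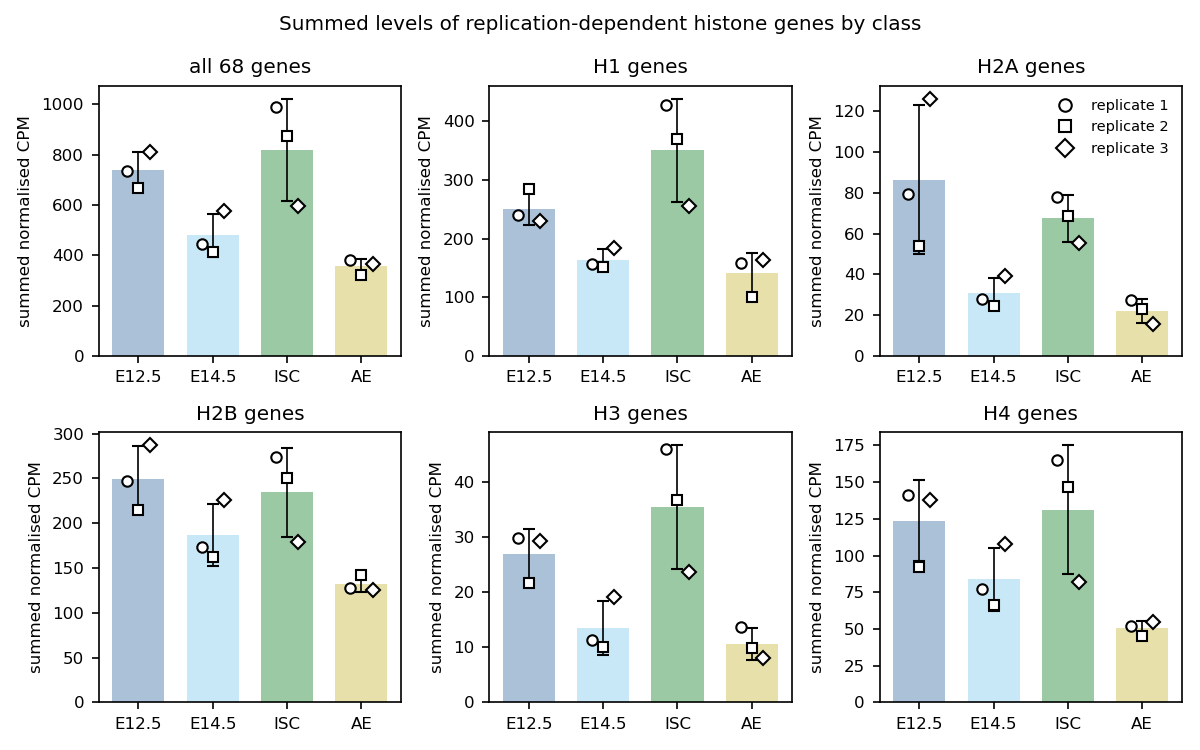
Summed normalised CPM of all 68 histone genes and of each class, for E12.5, E14.5, ISC and AE, with 1 marker per library, bars at the mean and error bars of 1 SD. AE libraries lie below all other libraries in the sum over all genes, and ISC replicate 3 is the lowest ISC library in every panel.

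A few genes carried most of the counts. Levels here are not divided by transcript length, which is annotated at 1930 bases for Hist1h1e and 381 for Hist1h2bl. Hist1h1e, an H1 gene, had the highest mean CPM over all libraries. It stood at 130, 159 and 134 CPM at E12.5 and 95.0, 89.9 and 108 at E14.5. In the adult groups it stood at 201, 178 and 133 in ISC and 76.2, 39.9 and 81.9 in AE. By the mean over all 12 libraries, Hist1h4d led the H4 genes, at 101 ± 23.0, 65.0 ± 18.1, 93.9 ± 39.7 and 37.3 ± 5.28 CPM in the same groups. By the same mean Hist1h2bl led the H2B genes, at 89.6 ± 26.3, 53.9 ± 12.3, 63.0 ± 20.6 and 14.0 ± 2.62 CPM (in AE, Hist1h2bc and Hist2h2be stood higher), followed by Hist1h2bm at 50.3 ± 4.34, 38.3 ± 6.89, 36.6 ± 7.53 and 12.6 ± 4.43 CPM. The H4 gene Hist1h4c stood at 3.96 ± 1.61, 3.96 ± 1.39, 4.23 ± 1.09 and 2.42 ± 0.309 CPM. By cluster, the Hist1 genes summed to 682 ± 68.1, 431 ± 81.3, 755 ± 203 and 317 ± 30.3 CPM and the Hist2 genes to 34.5 ± 3.12, 30.7 ± 4.70, 48.3 ± 1.97 and 25.0 ± 4.24 CPM, again in stage order. The 5 most abundant genes made up 58.8% ± 2.76 of the family sum at E12.5, 58.5% ± 0.268 at E14.5, 51.4% ± 2.40 in ISC and 39.7% ± 7.68 in AE. The lower share in AE came with a larger one for Hist1h1c and Hist1h2bc, described below. Of the 52 tested genes, 19 had their highest mean at E12.5, 1 at E14.5, 29 in ISC and 3 in AE, and 43 had their lowest mean in AE.

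**Figure D2:**
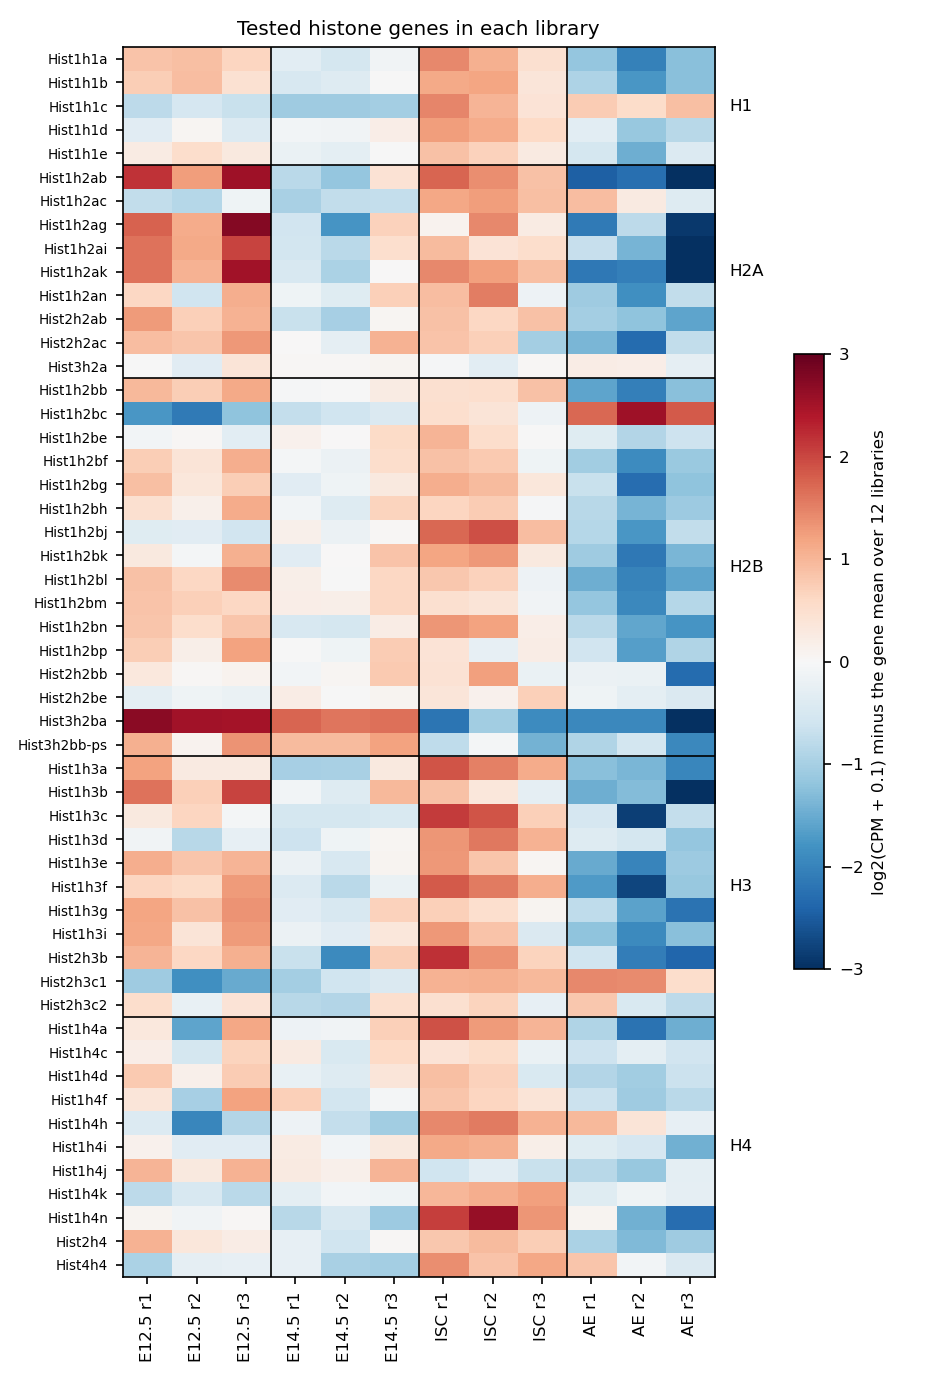
Each row is 1 of the 52 tested histone genes, ordered by class, and each column 1 library in stage order (r, replicate). Colour shows log2 of the normalised CPM plus 0.1, minus the mean of that gene over the 12 libraries. Most rows are low in AE, while Hist1h1c, Hist1h2bc and Hist2h3c1 are not, and Hist3h2ba is high in the 6 embryonic libraries.

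E14.5 against E12.5 asked how histone expression differed between the 2 embryonic stages. By edgeR's quasi-likelihood test at an adjusted p under 0.05, 18 of the 52 genes fell and 3 rose, beside 25.6% of all 15342 genes lower and 23.6% higher, 49.2% in all. The median log2 change was -0.64, against -0.01 over all genes. By class, 5 of 9 H2A, 6 of 11 H3, 2 of 5 H1, 4 of 16 H2B and 1 of 11 H4 genes were lower. Hist1h2ak, an H2A gene, stood at 9.19, 6.60 and 13.0 CPM at E14.5 and at 40.0, 26.3 and 73.7 CPM at E12.5, a fall by 2.30 ± 0.34 (SE) on the log2 scale (adjusted p = 8.96e-05). The H2A genes Hist1h2ab, Hist1h2ag, Hist1h2ai and Hist2h2ab fell by 2.55, 2.64, 1.97 and 1.71 on the same scale. All 5 share over 50% of their stretches with other genes, and reads aligned to more than 1 place are listed unlike in the 2 groups. The tested H2A genes sharing less did not pass the test, with Hist1h2ac at 2.80 ± 0.290 CPM at E14.5 and 3.39 ± 0.979 CPM at E12.5, and Hist3h2a at 11.0 ± 0.199 CPM at E14.5 and 10.9 ± 2.86 CPM at E12.5. Of the 30 tested genes sharing at most 50% of their stretches, 7 fell and 1 rose.

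Among the other classes, Hist1h1b, an H1 gene of dividing cells, fell 2.01-fold to 25.6 ± 4.59 CPM at E14.5, against 51.5 ± 8.43 CPM at E12.5 (adjusted p = 0.00248). The H3 gene Hist1h3e fell 2.27-fold, with 3.11, 2.50 and 3.74 CPM at E14.5 against 7.51, 6.31 and 7.19 CPM at E12.5, and the H4 gene Hist2h4 fell 1.81-fold to 4.97 ± 1.09 CPM, against 8.89 ± 2.95 CPM. The libraries of both stages did not overlap for any of these, as for 70.6% of all genes tested. Hist1h2bc, an H2B gene, went the other way, with 9.27, 10.1 and 11.3 CPM at E14.5 against 4.49, 3.42 and 6.53 CPM at E12.5, a log2 change of 1.08 ± 0.26 (adjusted p = 0.00391).

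The remaining rises were close to the threshold. Hist1h4k had a log2 change of 0.54 (adjusted p = 0.0342) and Hist2h3c1 one of 0.81 (adjusted p = 0.0475). The Hist1h4k call was lost without E12.5 replicates 1 or 3 (adjusted p = 0.0951 and 0.112) and without E14.5 replicates 1, 2 or 3 (0.0539, 0.115 and 0.0803). The Hist2h3c1 call was lost without E12.5 replicates 2 or 3 (0.158 and 0.122) and without E14.5 replicates 2 or 3 (0.122 and 0.128), so without E12.5 replicate 3, E14.5 replicate 2 or E14.5 replicate 3 the count of rises was 1. Mesenchymal markers moved between these stages too, with 9 of 10 higher and 1 lower at E14.5.

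ISC against E14.5 compared adult stem cells with the later embryonic epithelium. Of the 52 genes, 27 rose and 3 fell, beside 30.2% of all genes higher and 30.6% lower. The median log2 change was 0.90, against -0.01 over all genes. All 5 tested H1 genes rose, with 7 of 11 H3, 6 of 11 H4, 4 of 9 H2A and 5 of 16 H2B genes. Hist1h1c, an H1 gene that is also known outside S phase, stood at 78.3, 57.3 and 37.3 CPM in ISC and at 13.4, 13.4 and 13.8 CPM at E14.5, a log2 change of 2.09 ± 0.21 (adjusted p = 9.72e-07). Hist1h1e rose 1.75-fold and Hist1h1b 2.34-fold.

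Several core genes rose further from lower levels. Hist1h4n reached 1.99 ± 0.879 CPM in ISC, against 0.187 ± 0.0618 CPM at E14.5, a 9.84-fold rise in a gene with 85.6% of its stretches shared. Hist1h3c, Hist1h3f and Hist1h3a rose 4.90-, 4.38- and 4.35-fold. Of H2A genes, Hist1h2ac rose 3.86-fold to 10.8 ± 1.36 CPM in ISC, against 2.80 ± 0.290 CPM at E14.5, and Hist1h2ak rose 3.12-fold. Hist2h3c1 rose 3.44-fold, Hist4h4 3.76-fold and Hist1h2bc 1.80-fold. The falls were Hist3h2ba, Hist3h2bb-ps and Hist1h4j. Hist1h4j stood at 1.07 ± 0.157 CPM in ISC and 2.32 ± 0.846 CPM at E14.5 (log2 change -1.08, adjusted p = 0.0123), and that call was lost without E14.5 replicate 3 (-0.78, adjusted p = 0.0658).

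AE against ISC compared villus cells with the stem cells of the crypt, and it gave more calls among the histone genes than any other comparison here. Of the 52 genes, 41 fell and 1 rose, beside 35.2% of all genes lower and 32.6% higher. The median log2 change was -1.93, against -0.05 over all genes. Lower genes made up 4 of 5 tested H1, 8 of 9 H2A, 12 of 16 H2B, 9 of 11 H3 and 8 of 11 H4 genes. Hist1h2bl, an H2B gene, stood at 16.1, 11.0 and 14.8 CPM in AE and at 78.2, 71.2 and 39.6 CPM in ISC, a fall by 2.16 ± 0.28 on the log2 scale (adjusted p = 8.96e-06). Hist1h1e fell 2.58-fold to 66.0 ± 22.8 CPM, Hist1h1b 4.58-fold to 12.9 ± 3.65 CPM, Hist1h2bm 2.91-fold to 12.6 ± 4.43 CPM and Hist1h4d 2.52-fold to 37.3 ± 5.28 CPM.

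The 5 deepest falls among genes of at least 1 CPM in ISC were in H2A and H3 genes. Hist1h2ab stood at 0.421, 0.490 and 0.114 CPM in AE and at 9.38, 7.30 and 5.09 CPM in ISC, an 18.8-fold fall (adjusted p = 1.88e-05). Hist1h2ak fell 11.7-fold, Hist1h3f 12.9-fold and Hist1h3a 8.85-fold. Hist1h2ag fell 8.79-fold (adjusted p = 0.0146), and that call was lost without ISC replicate 2 (adjusted p = 0.0621) or AE replicate 1 (0.0831). Among the 30 tested genes sharing at most 50% of their stretches, 22 fell and 1 rose.

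**Figure D3:**
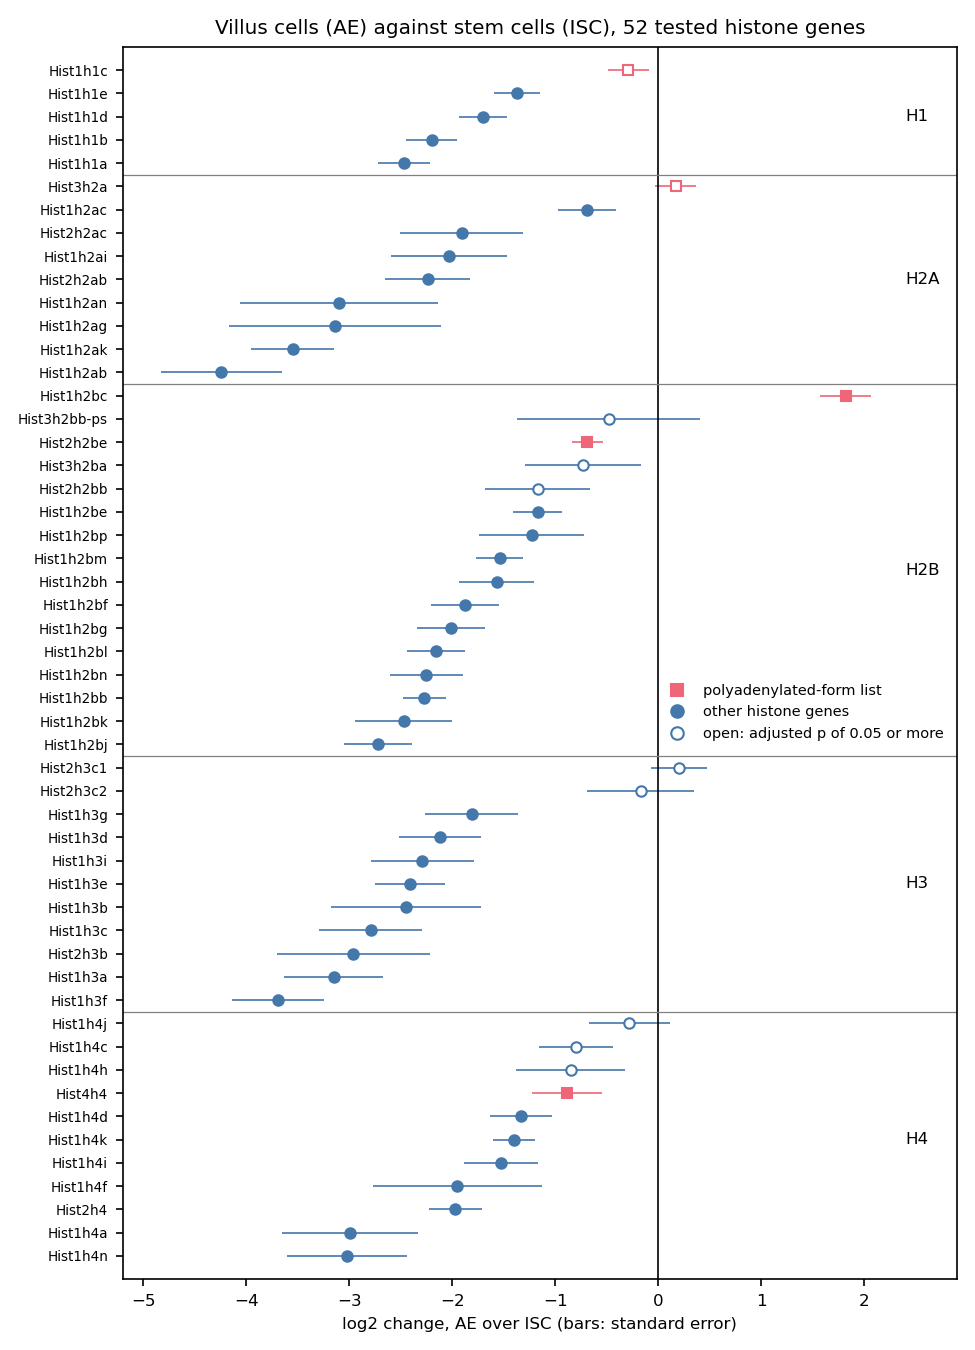
Log2 change of each of the 52 tested histone genes in AE over ISC, by class, with bars of 1 standard error. Filled points passed an adjusted p of 0.05 and squares are the list of genes known to give polyadenylated mRNAs. Points lie to the left of 0 except Hist1h2bc at 1.82, Hist2h3c1 at 0.20 and Hist3h2a at 0.17, the last of which was -0.03 with upper-quartile scaling.

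Hist1h2bc was the sole riser. It encodes an H2B and stood at 50.5, 89.9 and 54.5 CPM in AE, against 21.7, 19.9 and 13.7 CPM in ISC, so every AE library lay above every ISC library (the libraries of 66.3% of all genes do not overlap here). Its log2 change was 1.82 ± 0.25 (adjusted p = 1.90e-05). Immune markers were also higher in AE, with 5 of 10 called, and summed to 47.9 to 71.8 CPM in AE and 34.0 to 37.5 CPM in ISC, and their part in this result was not tested. Over the 4 groups in stage order its mean was 4.81 ± 1.58, 10.3 ± 1.04, 18.5 ± 4.18 and 65.0 ± 21.7 CPM. Its divergent neighbour Hist1h2ac, an H2A gene, stood at 9.57, 5.96 and 3.77 CPM in AE and 11.2, 11.9 and 9.31 CPM in ISC, with overlapping libraries and a log2 change of -0.69 (adjusted p = 0.0402). That Hist1h2ac call was lost without ISC replicates 1 or 2 (adjusted p = 0.0813 and 0.107) and without AE replicates 2 or 3 (0.13 and 0.175). Of 12 tested neighbouring pairs transcribed away from each other, 10 fell together in AE, where 41 of the 52 tested genes fell. Hist1h2bc and Hist1h2ac alone were called in opposite directions, which rests on that Hist1h2ac call.

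The genes known to give polyadenylated mRNAs were listed as Hist1h1c, Hist1h2bc, Hist2h2be, Hist2h2aa1, Hist2h2aa2, Hist3h2a and Hist4h4, of which 5 could be tested. In AE against ISC, 1 rose, 2 fell and 2 did not pass, and their median log2 change was -0.29 beside -1.93 for all tested histone genes. They summed to 50.6 ± 4.48 CPM at E12.5, 55.0 ± 1.72 at E14.5, 115 ± 22.4 in ISC and 141 ± 16.8 in AE. The ISC libraries (140, 109 and 96.2 CPM) and the AE libraries (131, 160 and 131 CPM) overlapped. The 1 riser was Hist1h2bc, at 65.0 ± 21.7 CPM in AE and 18.5 ± 4.18 CPM in ISC. The histone genes outside the list summed to 688 ± 69.0, 424 ± 84.7, 704 ± 183 and 216 ± 47.2 CPM in stage order. The listed genes' share of the family sum averaged 6.87% ± 0.543 at E12.5, 11.7% ± 1.72 at E14.5, 14.3% ± 1.83 in ISC and 40.0% ± 8.51 in AE. The AE libraries, at 34.4%, 49.7% and 35.7%, all lay above the others. Hist1h1c and Hist1h2bc made up most of that share in AE, at 32.0% ± 7.87, against 9.18% ± 0.818 in ISC.

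Single members of this list differed. Hist1h1c stood at 47.6, 41.3 and 52.8 CPM in AE and 78.3, 57.3 and 37.3 CPM in ISC (log2 change -0.29, adjusted p = 0.222), but without ISC replicate 3 it was called lower (-0.49, adjusted p = 0.00996). Hist2h2be, an H2B gene sharing no stretch with another gene, fell 1.62-fold to 14.4 ± 1.43 CPM in AE, against 23.4 ± 4.83 CPM in ISC (adjusted p = 0.00114). Hist4h4, an H4 gene, stood at 2.92 ± 1.44 CPM in AE and 5.76 ± 1.08 CPM in ISC (log2 change -0.89, adjusted p = 0.0319), a call lost without ISC replicates 1 or 3 (0.0969 and 0.0719) or AE replicates 2 or 3 (0.121 and 0.126). Outside the list, Hist2h3c1 did not pass the test, at 5.13 ± 1.67 CPM in AE and 4.57 ± 0.155 CPM in ISC (log2 change 0.20 ± 0.27, adjusted p = 0.531).

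The annotated length past the stem-loop was set beside these changes, at a limit of 300 bases chosen after the data were seen. Of 18 genes annotated for at least 300 bases past it, 12 fell in AE against ISC and 6 did not pass, with a median log2 change of -1.25. Of 19 tested genes annotated for less, 17 fell and 2 did not pass, with a median of -2.27. The 15 tested genes with no stem-loop match are in neither set. Of these, 12 fell, 1 rose and 2 did not pass, with a median of -2.20. They include Hist1h2bc and Hist2h2be, annotated at 1156 and 2620 bases, so the contrast covers only part of the family. The longer set summed to 206 ± 35.7 CPM in AE and 441 ± 117 CPM in ISC, and the shorter set to 28.9 ± 8.46 CPM in AE and 121 ± 26.0 CPM in ISC. The counts do not show which 3′ end an mRNA had, and longer transcripts gather more counts.

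**Figure D4:**
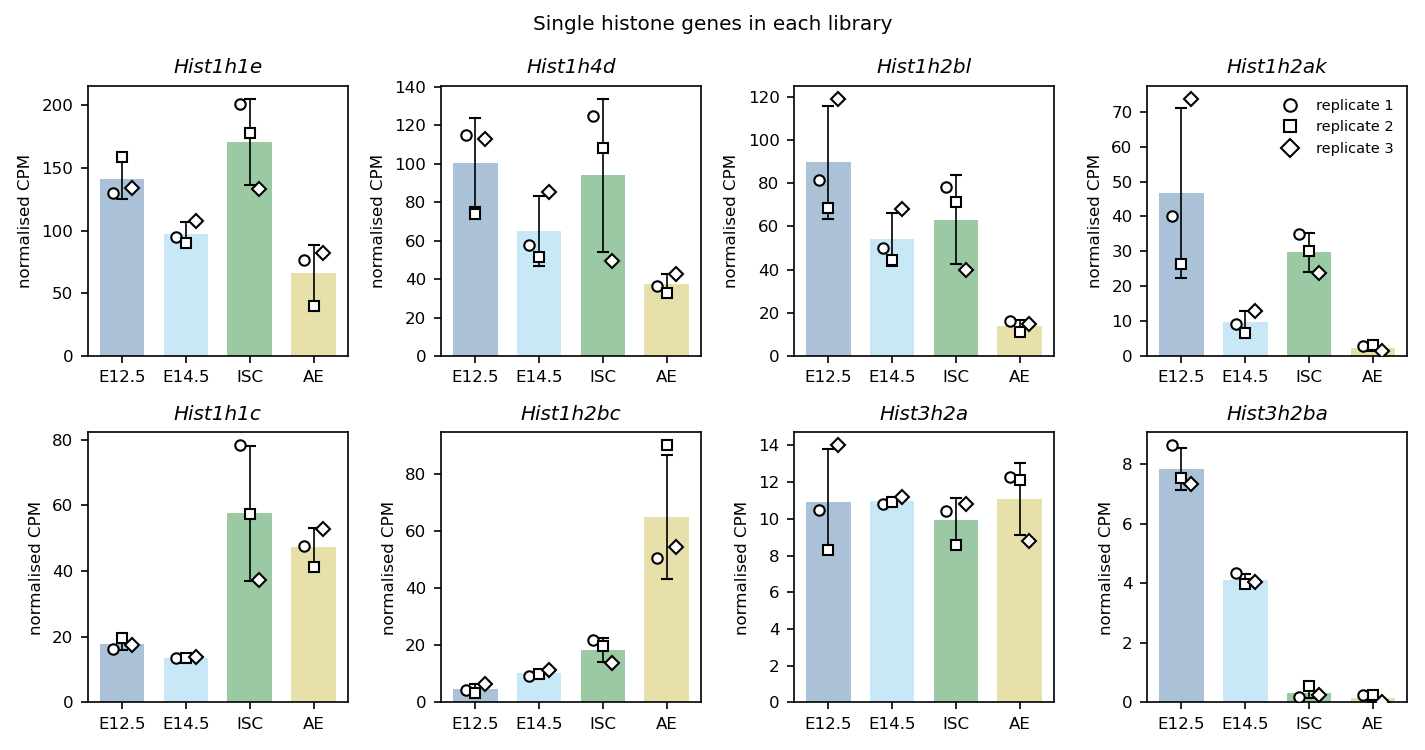
Normalised CPM of 8 histone genes for E12.5, E14.5, ISC and AE, with 1 marker per library, bars at the mean and error bars of 1 SD. The upper genes are lowest in AE, Hist1h2bc is highest there, Hist3h2a stays near 10 to 11 CPM on average and Hist3h2ba is near 0 in both adult groups.

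ISC against E12.5 set the stem cells against the earlier embryonic stage. Of the 52 genes, 16 rose and 5 fell, beside 33.9% of all genes higher and 34.6% lower, and the median log2 change was 0.23 against -0.01. Members of the polyadenylated list were among those that rose, in 4 of 5 tested. Hist1h1c stood at 57.6 ± 20.5 CPM in ISC and 17.8 ± 1.75 CPM at E12.5, a 3.23-fold rise (adjusted p = 5.11e-06). Hist1h2bc, Hist4h4 and Hist1h2ac rose 3.80-, 3.17- and 3.18-fold. Hist2h3c1 stood at 4.63, 4.68 and 4.39 CPM in ISC and at 0.995, 0.533 and 0.697 CPM at E12.5, a 6.02-fold rise. Hist1h2bj, Hist1h4k and Hist1h4n rose 4.18-, 3.61- and 4.97-fold.

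The falls in this comparison were Hist3h2ba, Hist3h2bb-ps, Hist1h4j, Hist1h3b and Hist1h2ai. Hist1h4j fell 2.67-fold (adjusted p = 0.00182). Hist1h3b, with overlapping libraries, had a log2 change of -1.28 (adjusted p = 0.0310) and Hist1h2ai one of -1.04 (adjusted p = 0.0454). The Hist1h3b call was lost without E12.5 replicates 1 or 3 (0.0702 and 0.141) and without ISC replicates 2 or 3 (0.0754 and 0.115). The Hist1h2ai call was lost without E12.5 replicates 1 or 3 (0.0853 and 0.178) and without ISC replicates 1, 2 or 3 (0.0504, 0.124 and 0.101). The count of falls was 3 without E12.5 replicate 1 or replicate 3 and 9 without E12.5 replicate 2.

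AE against E14.5 set villus cells against the embryonic epithelium. Of the 52 genes, 30 fell and 6 rose, beside 41.5% of all genes lower and 36.7% higher. The median log2 change was -1.06, against -0.12 over all genes. Of the H2B genes, 14 of 16 fell. Hist1h2bl fell 3.83-fold to 14.0 ± 2.62 CPM in AE, against 53.9 ± 12.3 CPM at E14.5 (adjusted p = 1.65e-05). Its libraries did not overlap, as for 81.5% of all genes. Hist1h2ab, Hist1h2ak and Hist2h2ac fell 5.31-, 3.76- and 3.71-fold.

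The rises in AE against E14.5 had Hist1h2bc first, at 65.0 ± 21.7 CPM in AE and 10.3 ± 1.04 CPM at E14.5, a 6.34-fold rise (adjusted p = 3.40e-07). Hist1h1c rose 3.48-fold, Hist2h3c1 3.95-fold and Hist1h2ac 2.40-fold. Hist4h4, with overlapping libraries, had a log2 change of 1.02 (adjusted p = 0.0162), a call lost without E14.5 replicates 2 or 3 (0.07 and 0.0575) or AE replicate 1 (0.256). These comparisons share libraries with those above and are not independent of them.

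In the Hist3 cluster, the H2B gene and the pseudogene beside it were lower in both adult groups, and the H2A gene did not pass the test in any comparison. Hist3h2ba, an H2B gene, stood at 8.63, 7.55 and 7.34 CPM at E12.5, 4.34, 3.96 and 4.04 CPM at E14.5, 0.190, 0.545 and 0.261 CPM in ISC and 0.245, 0.245 and 0 CPM in AE. Both adult groups lay below every embryonic library. It fell 1.91-fold at E14.5 against E12.5 (adjusted p = 0.00547), 12.2-fold in ISC against E14.5 (5.75e-07), 23.2-fold in ISC against E12.5 (2.72e-08) and 20.3-fold in AE against E14.5 (1.67e-07). AE and ISC overlapped (log2 change -0.73, adjusted p = 0.261). Mesenchymal markers were also lower in both adult groups, at the sums given above, and their part in this result was not tested. Hist3h2bb-ps, named as an H2B pseudogene, stood at 0.632 ± 0.292, 0.694 ± 0.0838, 0.148 ± 0.116 and 0.0895 ± 0.0828 CPM in the same order of groups, and 22.1% of the stretches of Hist3h2ba recur in another gene, mainly this one. Hist3h2a, an H2A gene on the list of polyadenylated forms, stood at 10.9 ± 2.86 CPM at E12.5, 11.0 ± 0.199 at E14.5, 9.91 ± 1.19 in ISC and 11.0 ± 1.96 in AE. Its AE libraries overlapped its ISC libraries (log2 change 0.17 ± 0.20, adjusted p = 0.457; -0.03 with upper-quartile scaling).

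Histone genes of the testis were near absent. Hist1h1t, the testis H1, stood at 0.0377 ± 0.00623 CPM at E12.5, 0.0278 ± 0.0294 at E14.5, 0.0894 ± 0.0362 in ISC and 0.390 ± 0.0651 in AE, too low for the filter. Hist1h2ba had 1 to 3 counts and Hist1h2aa had 0. Replacement and variant histones, most of which are also made outside S phase, had a higher summed CPM than the 68 genes in all groups. These sums are not divided by transcript length and do not rank the amounts of mRNA. How well mRNAs without a poly(A) tail were captured was not tested. The 12 listed summed to 1217 ± 58.5 CPM at E12.5, 994 ± 25.7 at E14.5, 1222 ± 214 in ISC and 907 ± 110 in AE. In AE against ISC, 1 of the 12 rose and 8 fell (75.0% called, beside 67.8% of all genes), with a median log2 change of -1.17.

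Among replacement genes, H2afx, encoding the H2A form phosphorylated at DNA breaks, was highest at the earlier embryonic stage. It stood at 181 ± 25.7 CPM at E12.5, 69.6 ± 1.57 at E14.5, 101 ± 31.3 in ISC and 29.5 ± 4.62 in AE, and fell 3.42-fold in AE against ISC (adjusted p = 1.56e-06) and 2.61-fold at E14.5 against E12.5. H2afz, encoding H2A.Z, fell 2.74-fold to 21.9 ± 10.3 CPM in AE, against 61.6 ± 7.93 CPM in ISC. H3f3a, encoding H3.3, was the riser, at 77.9 ± 17.0 CPM in AE and 45.1 ± 12.9 CPM in ISC (1.73-fold, adjusted p = 0.00180). H3f3b, which encodes the same protein, stood at 315 ± 83.1 CPM in AE and 390 ± 114 CPM in ISC (adjusted p = 0.188), and it was called lower without ISC replicate 3 (0.0239) or AE replicate 1 (0.0153). H1f0, the H1 form of resting cells, stood at 269 ± 25.2 CPM in AE and 289 ± 36.7 CPM in ISC (adjusted p = 0.433). H2afy2, encoding a macroH2A, stood at 91.3 ± 4.59 CPM at E12.5 and 36.6 ± 0.225 CPM at E14.5 and was 21.0-fold lower in ISC than at E14.5, at 1.76 ± 0.464 CPM. H2afy, encoding the other macroH2A, stood at 275 ± 17.0, 185 ± 9.17, 198 ± 5.10 and 107 ± 17.7 CPM over E12.5, E14.5, ISC and AE. H2afv, a further H2A.Z gene, stood at 27.7 ± 1.46, 18.7 ± 0.807, 39.2 ± 13.1 and 39.8 ± 11.9 CPM, and H2afj, an H2A gene, at 8.87 ± 0.446, 17.0 ± 0.602, 30.5 ± 5.54 and 22.0 ± 5.56 CPM. Cenpa, the H3 form of centromeres, stood at 47.8 ± 1.36, 42.7 ± 1.51, 65.6 ± 1.07 and 23.6 ± 8.09 CPM. H2afy3 stood at 2.81 ± 0.243, 2.08 ± 0.181, 0.600 ± 0.343 and 0.191 ± 0.170 CPM, and H1fx was below 1 CPM in every library but those of E12.5.

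The genes that make, process and carry histone products were counted in the same way. Of 13 genes of histone transcription, 8 fell and 1 rose in AE against ISC, 69.2% called beside 67.8% of all genes. Npat, the coactivator that switches on histone clusters at S phase, fell 2.71-fold to 36.9 ± 9.33 CPM in AE, against 100 ± 5.06 CPM in ISC (adjusted p = 1.17e-06). In ISC against E14.5, 7 of the 13 fell and 1 rose (61.5% called, beside 60.7% of all genes), and Npat stood at 100 ± 5.06 CPM in ISC and 113 ± 2.26 CPM at E14.5. In E14.5 against E12.5, 3 rose and 4 fell (53.8%, beside 49.2%), and Npat fell 1.40-fold (adjusted p = 0.0127), a call lost without E12.5 replicate 2 (0.0562).

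Of 17 measured genes of histone mRNA processing and decay, 12 fell and 2 rose in AE against ISC, 3 rose and 8 fell in ISC against E14.5, and 2 rose and 4 fell at E14.5 against E12.5. The shares called were 82.4%, 64.7% and 35.3%, beside 67.8%, 60.7% and 49.2% of all genes. Slbp stood at 56.4, 43.2 and 38.1 CPM in AE and 74.9, 71.4 and 60.4 CPM in ISC, a 1.49-fold fall (adjusted p = 0.00143). It was also 1.44-fold lower in ISC than at E14.5. Of 17 histone chaperone genes, 14 fell and 0 rose in AE against ISC, with 14 at an unadjusted p under 0.05, 4 rose and 9 fell in ISC against E14.5, and 6 fell and 0 rose at E14.5 against E12.5, with 7 at an unadjusted p under 0.05. The shares called were 82.4%, 76.5% and 35.3%, beside the same 67.8%, 60.7% and 49.2%. Nasp, the chaperone of H3 and H4 reserves and of H1, fell at each step, to 517 ± 7.12 CPM at E14.5 against 845 ± 126 CPM at E12.5, to 161 ± 31.1 CPM in ISC against 517 CPM at E14.5, and to 71.5 ± 18.1 CPM in AE against 161 CPM in ISC.

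Markers of the cell cycle were set beside the histone genes. Of 26 DNA replication genes, 23 fell and 0 rose in AE against ISC, and all 17 mitosis genes fell, with a median log2 change of -1.46 and -1.62, beside 35.2% of all genes lower. Mki67, a marker of cycling cells, fell 4.50-fold to 471 ± 153 CPM in AE, against 2118 ± 262 CPM in ISC (adjusted p = 2.09e-07). Pcna, the replication clamp, stood at 88.9 ± 16.0 CPM in AE and 107 ± 20.2 CPM in ISC (adjusted p = 0.132), and it was called lower without ISC replicate 3 (0.0319) or AE replicate 1 (0.0337). In ISC against E14.5, 12 of the 26 replication genes fell and 1 rose (50.0% called, beside 60.7% of all genes), and Pcna fell 1.64-fold, while Mki67 rose 2.09-fold and mitosis genes had 3 higher and 2 lower of 17 (29.4%). In E14.5 against E12.5, 2 replication genes rose and 2 fell (15.4% called, beside 49.2% of all genes). Whether the lists differ was not tested.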

How the data were processed

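RNA-seq was made from 50 ng of total RNA with Ovation v2.0 cDNA, Covaris shearing and NEBNext v2.0 libraries, per the labels' protocols. The authors deposited whole-number counts for each gene symbol, with no scaling. Tools in the submitters' processing notes are DESeq2 1.6.3, HTSeq 0.6.1p1, SAMtools 1.2, STAR 2.3.1z13 and bcl2fastq 1.8.4, beside the build mm9, with roles, annotation and strand setting not given in the sources used here. Closing entries without a gene name were left out of the fit: reads in no gene were 33.4% to 58.1% and ambiguous reads 0.531% to 1.00% of all reads listed.

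Counts of all genes were fitted with edgeR 4.0.16 under R 4.3.3 (quasi-likelihood F test, TMM factors of 0.696 to 1.16, its expression filter, 12 libraries, 1 coefficient per group, no covariate, prior count 0.125). Of 23366 genes, 15342 were tested, and p-values were adjusted over them by Benjamini-Hochberg at 0.05. The common biological coefficient of variation was 0.154. All replicate pairs differed by more than sampling noise (chi-square per degree of freedom 3.38 to 138). Replicates came from separate adult guts or, for E12.5, pools of embryos, per the labels' protocols. The scripts were tested on simulated data. Floors cover counting error only.

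Genes named were, per class, the 3 of highest mean; per comparison, up to 5 each way past the threshold with the largest change, where the higher group averaged 1 CPM or more; and members of the polyadenylated, testis and replacement lists, with Slbp, Npat, Nasp, Pcna and Mki67. The leading genes of the other lists, which that rule also covers, are given only within their lists' counts. Other genes were named after their values were seen. Members and lists were chosen with earlier results of these data known. Shared sequence, stem-loops and promoters came from GENCODE M21 and RefSeq on GRCm38 and served no test.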

Additional observations from a re-analysis of the deposited data

Results flagged for a closer look

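Reads listed as not uniquely aligned, which no comparison here used, averaged 3.55% ± 0.453 of all reads listed in E12.5 and 5.61% ± 0.486 in ISC (SD, n = 3 each), while all E14.5 and AE libraries listed 0. They were looked at again because near-identical histone copies give such reads. Whether histone reads are among them was not tested, since they carry no gene name.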

How the results depend on the processing

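Same-numbered libraries showed little joint deviation (correlations from -0.131 to 0.175, with 1 of 18 over 0.1). No pairing by replicate number was seen, but 3 libraries per group cannot exclude one. A replicate block moved the count of genes higher in E14.5 against E12.5 to 1, where the fit without it gave 3. That count was 6 in a fit of the 6 libraries alone and 1 among genes sharing at most 50% of their stretches. Among those genes, 7 were lower in E14.5 against E12.5, 17 higher in ISC against E14.5, 22 lower in AE against ISC, 3 lower in ISC against E12.5 and 18 lower in AE against E14.5, by construction out of 30. Genes lower in ISC against E12.5 numbered 8 with RLE scaling and 8 with DESeq2 1.42.0, against 5. Without the filter on low counts, 2 rose in AE against ISC. The cause of these differences was not tested. The summed log2 ratio of AE over ISC was -1.69 without scaling factors and -1.56 per transcript length, and that of AE over E14.5 was -0.68 with upper-quartile scaling, -1.05 without factors and -0.84 per length. Upper-quartile scaling moved the median of all genes to -0.365 in AE against E14.5 and to -0.251 in AE against ISC, where the main scaling gave -0.121 and -0.053. Leaving out 1 library gave 1 to 2 higher and 12 to 24 lower in E14.5 against E12.5, 25 to 36 and 2 to 3 in ISC against E14.5, 1 and 37 to 43 in AE against ISC, 14 to 19 and 3 to 9 in ISC against E12.5, and 4 to 6 and 22 to 35 in AE against E14.5. The summed ratios then ran from -0.77 to -0.53, 0.62 to 0.92, -1.35 to -1.05, -0.00 to 0.32 and -0.53 to -0.28, in the same order. Changes of direction in AE against ISC were Hist3h2a at -0.03 with upper-quartile scaling and H1f0 at 0.00 without AE replicate 2 (-0.15 to 0.00 over libraries left out), neither past the threshold. Upper-quartile scaling called Hist1h1c (-0.49, adjusted p = 0.0453), H1f0 (-0.30), H3f3b (-0.50) and Pcna (-0.46) lower in AE against ISC. Of 1019 values of named genes under alternatives, 966 kept direction and side of the threshold, 42 lost and 9 gained the call. Depth, at 3208 to 22986 counts on all 68 genes per library, limits the rarer members most in AE.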
